A study of Microtus ochrogaster with 2 samples.

Results

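The genes described here are 10 members of the calcium and calmodulin signalling machinery of neurons: Camk2a, Camk2b, Camk2d and Camk2g, which encode the subunits of calcium/calmodulin-dependent protein kinase II (CaMKII), its inhibitor Camk2n1, the related kinases Camk1d and Camk4, their activating kinases Camkk1 and Camkk2, and the calmodulin-binding protein neurogranin (Nrgn). They were chosen by name, with earlier results of these data known, among them the peaks at Camk2a and Nrgn. A locus was the gene body with 5 kb on each side, and every H3K4me1 peak that overlapped it by at least 1 bp was counted. The loci of 8 of the 10 genes could be placed, and they held 56 of the 36238 peaks in the list. Camk2b and Camk2g lie on unplaced sequences of the gene table, so they have no position that can be joined to the peaks and are reported as missing.

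The animals were male prairie voles (Microtus ochrogaster), 30 to 40 days old, and the tissue was the retrosplenial cortex, a midline area of the cerebral cortex. Chromatin pulled down with an H3K4me1 antibody (ChIP) was set against input chromatin of the same tissue without antibody, and peaks were called from the pair. There was 1 library of each kind, with 37430265 ChIP fragments and 47554684 input fragments after the peak caller's filter. The series mentions 8 males, but the sources used here do not state how these were pooled. No replicate check was therefore possible, nothing below carries a p-value across animals, and each value describes this peak list alone. The tissue holds many cell types, and a weaker mark in many cells cannot be told apart from a stronger mark in few.

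H3K4me1, the monomethylated form of lysine 4 on histone H3, marks enhancers and the flanks of active promoters. Calcium entering a neuron binds calmodulin, and calcium-loaded calmodulin switches on CaMKII, which then phosphorylates itself and stays active after the calcium signal ends. In forebrain excitatory neurons CaMKII is among the most abundant postsynaptic proteins and is required for long-term potentiation. A parallel cascade runs from the kinases encoded by Camkk1 and Camkk2 to CaMKI and CaMKIV, and CaMKIV phosphorylates the transcription factor CREB in the nucleus.

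All 8 placed genes had at least 1 peak in the locus, whereas 46.0% of the 13975 placed protein-coding genes did. That share depends strongly on length. It was 24.3% of genes with loci under 20 kb, 45.2% at 20 to 50 kb, 66.3% at 50 to 100 kb, 76.3% at 100 to 200 kb, 89.6% at 200 to 400 kb and 94.5% above 400 kb. Camk2d, Camk4 and Camk1d lie in classes where a peak is the rule, so their presence in the count carries little information. The peaks at Camk2a and Nrgn were known when the genes were chosen, so both genes were certain to be counted. The count is therefore a description and not a comparison with the share of all genes. The median gene of the 8 had 2.67% of its locus under peaks (range 1.72 to 6.46%), and the median of all placed genes was 0%. Among all placed genes that had any peak the median was 2.08%. With 5 kb flanks Camk2n1, Camk2a and Nrgn had the highest coverage and the other 5 genes had 2.77% or less. This order depended on the flank. With gene bodies alone Camk2n1 and Nrgn had 0%, Camk2a 7.11% and Camkk1 4.04%, and with 50 kb on each side Nrgn had 1.33%, below Camk1d at 2.24%.

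**Figure D1:**
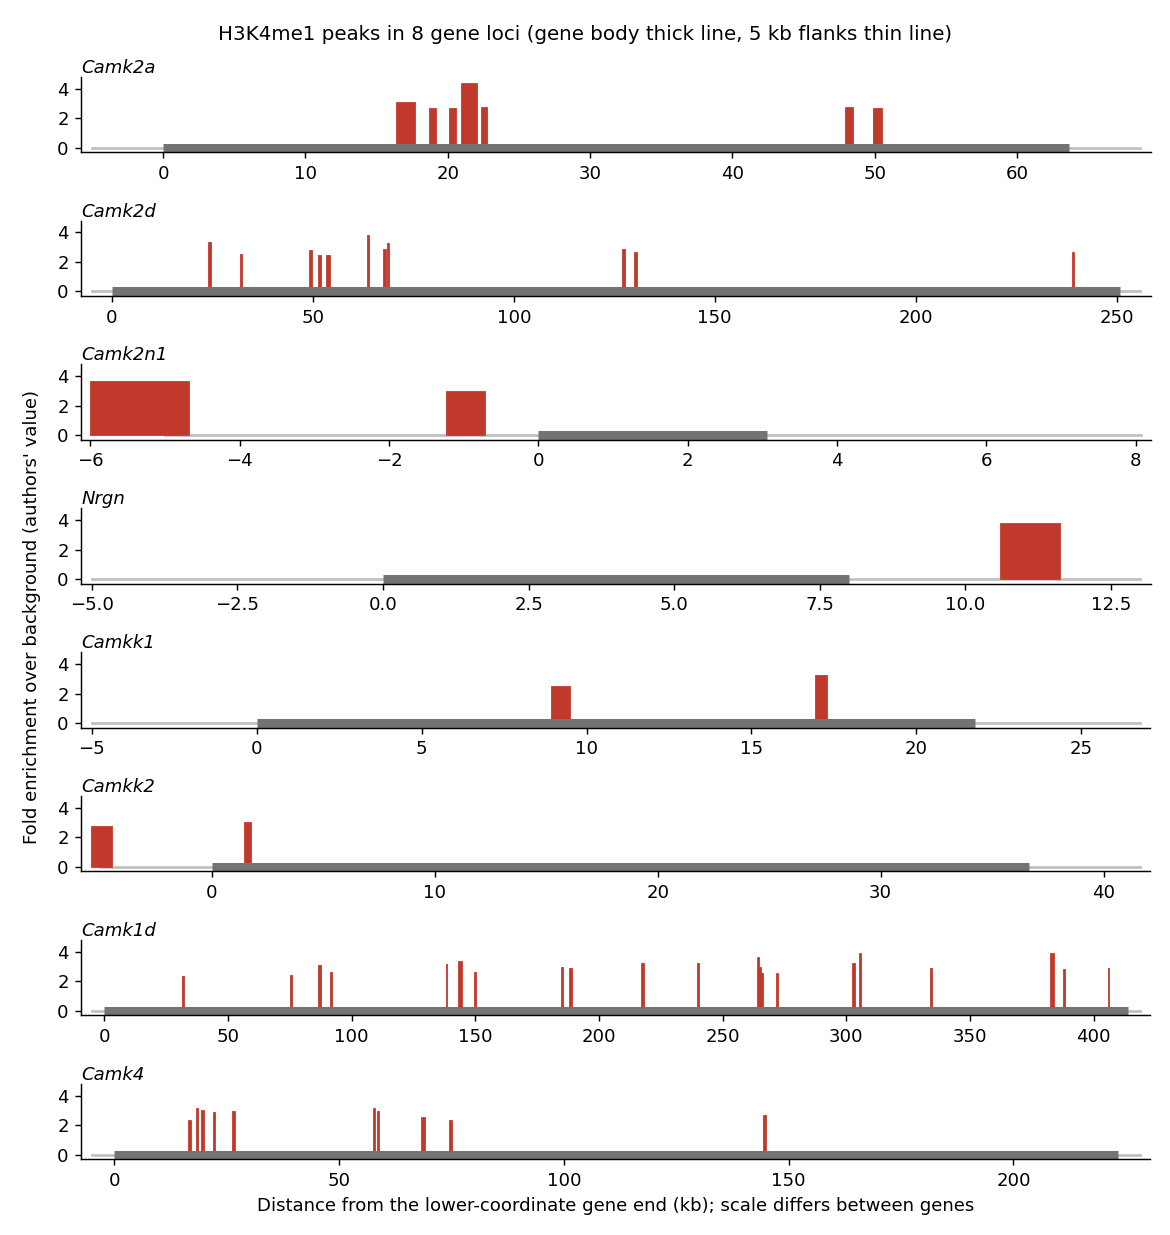
Position of the 56 H3K4me1 peaks along the 8 placed loci. The x axis is distance in kb from the lower-coordinate end of each gene, on a scale of its own for each gene. Bars span each peak and their height is the authors' fold enrichment. Camk2a shows a block of 5 peaks and a pair, Camk1d is dotted with 21 peaks from end to end, and the peaks of Camk2n1 and Nrgn stand outside the gene bodies.

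Camk2a, the alpha subunit that dominates CaMKII in forebrain excitatory neurons, had 7 peaks over 6.15% of its 73.6 kb locus. All 7 lay inside the gene body. In order along chromosome 18 their pileups, the numbers of ChIP fragments over the summit, were 21, 22, 18, 30, 23, 30 and 18. The local backgrounds set by the caller from the input were 6.23, 7.87, 6.25, 6.23, 7.87, 10.6 and 6.23 fragments. The authors' fold enrichment of pileup over background was 3.04, 2.59, 2.62, 4.29, 2.71, 2.67 and 2.63. The fourth and sixth peaks thus had the same pileup but differed in fold, because the background was 6.23 fragments under the fourth and 10.6 under the sixth.

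The Camk2a peaks lay in 2 runs, a run being a set of neighbouring peaks with gaps under 5 kb. The first 5 formed a run from 46760964 to 46767279 on chromosome 18, a span of 6316 bp of which 55.7% was under peaks, and the gaps between them were 344 to 1035 bp. This run began 16.4 kb inside the lower-coordinate end of the gene. The fourth peak of the run (46765505 to 46766582) was 1078 bp wide and its 4.29-fold enrichment was the highest of the 56 peaks, at rank 384 in the whole list. A stretch of 25.3 kb without a peak followed, and then a pair from 46792542 to 46795044. No other protein-coding gene lay within the Camk2a locus. A wider peak of 1637 bp (46737348 to 46738984), with 28 fragments over 6.23 and 4.01-fold enrichment, stood 0.547 kb beyond the lower-coordinate limit of the locus and overlapped the neighbouring gene Arsi, and with 10 kb on each side coverage was 7.37%. Of the 2229 genes with loci of 50 to 100 kb, Camk2a ranked 95 by coverage, above 95.7% of them, and its 0.950 peaks per 10 kb stood beside a class median of 0.161.

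Camk2d, the delta subunit, which is best known as the main CaMKII of heart muscle, is a longer gene with a sparser pattern. It had 11 peaks over 1.75% of a 261 kb locus on chromosome 21, or 0.422 peaks per 10 kb. Pileup ranged from 18 to 29 fragments (median 20) over backgrounds of 6.23 to 8.97, and fold from 2.41 to 3.77 (median 2.77). Its strongest peak by fold (22520004 to 22520334) had 29 fragments. Of the 11 peaks, 8 lay on the lower-coordinate side of the middle of the gene body and 3 on the other, and a peak-free stretch of 108 kb, 41.6% of the locus, separated the last peak from the rest. Camk2d ranked 171 of the 502 genes with loci of 200 to 400 kb, above 65.9% of them, while Camk2a stood higher in its own class. None of the Camk2d peaks reached 1 kb in width, whereas 2 of the 7 Camk2a peaks did.

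Camk2n1 encodes a small inhibitor protein that binds the active CaMKII kinase domain. The gene body spans only 3.07 kb on chromosome 10 and held no peak. A peak of 515 bp (46432841 to 46433355), with 24 fragments over a background of 7.48 and 2.95-fold enrichment, had its summit 0.849 kb outside the lower-coordinate end. The other, 1316 bp wide (46428077 to 46429392), had 25 fragments over 6.23 and 3.60-fold enrichment, and 329 bp of it fell inside the locus. Together they covered 6.46% of the 13.1 kb locus, the highest value of the 8 genes, at rank 296 of the 5005 genes with loci under 20 kb. Only 1216 of those 5005 genes had any peak. Counted by peak midpoints, so that the peak at the edge was left out, coverage was 3.94%. A further peak (46426978 to 46427389, 21 fragments, 2.60-fold) stood 1.67 kb beyond the limit, and with 10 kb on each side the coverage was 9.72%. The nearest peak beyond the opposite flank was 24.3 kb away.

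Nrgn encodes neurogranin, a postsynaptic protein that binds calmodulin when calcium is low and releases it when calcium rises. Its locus on chromosome 5 held 1 peak (31159351 to 31160365), 1015 bp wide, with 26 fragments over 6.23 and 3.73-fold enrichment (rank 1892 of all peaks). The summit stood 3.14 kb outside the higher-coordinate end of the 8.00 kb gene, so the gene body itself had no peak. The peak covered 5.64% of the locus, rank 372 of the 5005 genes under 20 kb, of which 1216 had any peak. The coverage was 3.63% with 10 kb and 1.33% with 50 kb on each side. Vsig2 also lies partly in the Nrgn locus, at its opposite end, and no peak overlapped it there. The next peaks outside the locus were 9.53 kb away on the higher-coordinate side, with 19 fragments and 2.77-fold enrichment, and 49.0 kb away on the other.

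The activating kinases had few peaks. Camkk1, the alpha form, had 2 peaks over 2.77% of its 31.8 kb locus on chromosome 7, both inside the gene. The peak at 25921509 to 25922058 had 29 fragments over a background of 11.4, the highest background of the 56 peaks, and 2.42-fold enrichment. The peak at 25929530 to 25929860 had 22 fragments over 6.23 and 3.18-fold enrichment. The ion channel gene P2rx1 lies partly in the same locus, and neither peak overlapped it.

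Camkk2, the beta form, which also activates the energy sensor AMPK, had 2 peaks over 1.72% of its 46.6 kb locus on chromosome 2. One (14888062 to 14888967) lay in the lower-coordinate flank, with 537 of its 906 bp inside the locus, 21 fragments over 7.08 and 2.72-fold enrichment. The other (14894930 to 14895192) lay 1.69 kb inside the same gene end, with 22 fragments over 6.74 and 2.97-fold enrichment. The remaining 39.9 kb, 85.5% of the locus, had no peak. No further peak stood within 50 kb of either gene end, the closest being 54.6 kb and 71.6 kb beyond the locus. Neither Camkk2 peak reached 3-fold enrichment, while each of the other 7 genes had at least 1 that did.

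Camk1d encodes CaMKI delta, which acts on neurite growth. It is the longest of the genes and had the most peaks, 21 over 2.58% of a 424 kb locus on chromosome 16. Pileup ranged from 17 to 31 fragments (median 22), background from 6.23 to 8.26, and fold from 2.27 to 3.87 (median 2.90). Peaks were spread along the body, 9 on the lower-coordinate side of its middle and 12 on the other, and the longest stretch without a peak was 47.8 kb, or 11.3% of the locus. The strongest were at 23097318 to 23097786 (27 fragments, 3.87-fold) and at 23174527 to 23175680 (31 fragments, 3.83-fold, 1154 bp wide). The closest set, 3 peaks from 23056164 to 23058166, filled 49.97% of a 2003 bp span. Peak number grows with length, and the median gene above 400 kb had 12 peaks over 0.943% of its locus. Camk1d ranked 22 of the 201 genes of that class by coverage, above 89.1% of them.

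Camk4 encodes CaMKIV, the nuclear kinase that phosphorylates CREB. It had 10 peaks over 1.72% of a 233 kb locus on chromosome 18, with pileups of 17 to 25 fragments (median 21.5) over backgrounds of 6.23 to 9.45. Fold ranged from 2.26 to 3.12 (median 2.85). Of the 10 peaks, 9 were on the lower-coordinate side of the middle of the gene. A run of 5 from 21542306 to 21552493 began 16.6 kb inside that end, and 18.6% of its span of 10188 bp was under peaks. The last 83.2 kb of the locus had none. The annotated pseudogene LOC101999348 lies within Camk4, and the 5 other peaks overlapped it. Its weakest peak (21542306 to 21542822), with 17 fragments and a −log10 q of 1.39, stood just above the caller's limit of 1.30. By coverage Camk4 ranked 173 of 502 in its length class, next to Camk2d at 171.

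Both Camk2a and Camk4 carried a run of 5 peaks that began about the same distance from the lower-coordinate end, at 16.4 kb and 16.6 kb. The runs differed in density, since peaks filled 55.7% of the span in Camk2a and 18.6% in Camk4. The Camk4 run includes a gap of 4.02 kb, close to the 5 kb limit. Runs in other genes were not computed, so the like distances are not read as a shared trait. Strand was not used here, so the start and the stop of transcription were not told apart, and none of these distances is a distance from a promoter.

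Over the 56 peaks, 52 had their midpoint inside the gene body and 4 outside it, namely both Camk2n1 peaks, the Nrgn peak and 1 Camkk2 peak. The midpoint of the wider Camk2n1 peak lay beyond the flank, so 55 peaks had theirs inside a locus. Of the summits, 5 lay within 5 kb of a gene end, and 48 lay more than 10 kb from both ends. Gene bodies make up most of the long loci, as in Camk1d with 414 of 424 kb. The same shares over all peaks were not computed, so these counts are not read as a trait of these genes. No peak overlapped another placed protein-coding gene or its 5 kb flanks. Neighbouring peaks of the same gene were separated by 48 gaps with a median of 5.27 kb, of which 23 were under 5 kb. The shortest gap was 344 bp in Camk2a and the longest 108 kb in Camk2d. Gaps over all genes were not computed either, so these values are a description only.

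**Figure D2:**
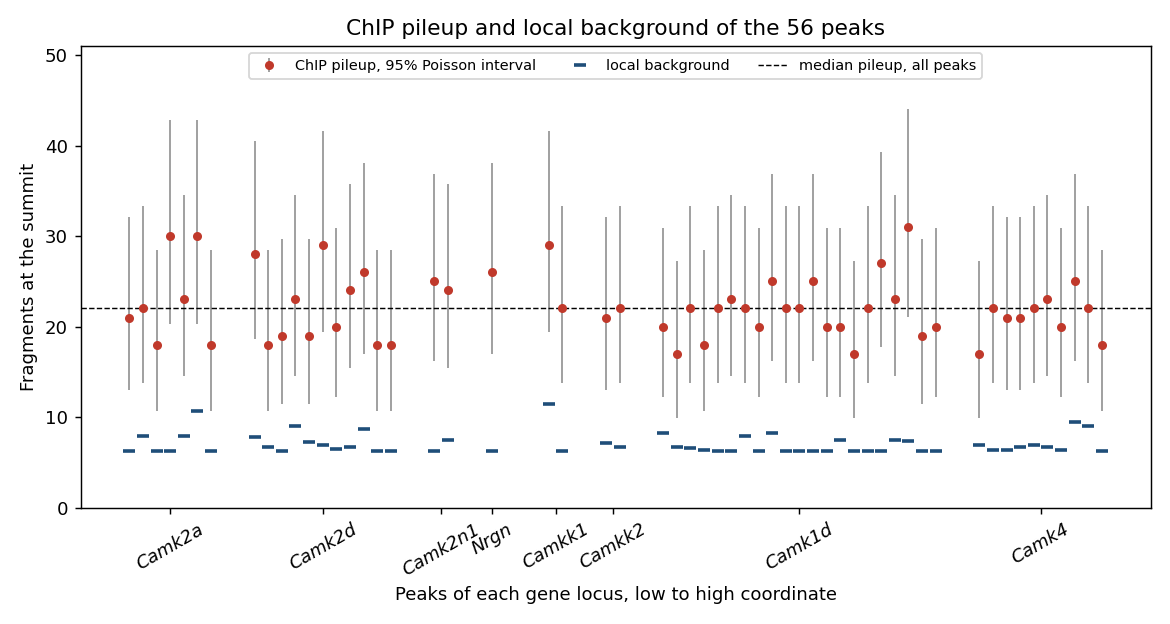
ChIP fragments at the summit of each of the 56 peaks (circles, with exact 95% Poisson intervals for counting error) and the local background set by the caller (bars), grouped by gene. The dashed line is the median pileup of all peaks, 22 fragments. The intervals overlap between every pair of peaks, and each circle stands above its background.

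In strength these peaks were ordinary members of the list. Their median pileup was 22 fragments, as it was over all peaks, and their median fold was 2.84 (quartiles 2.60 and 3.18) beside 2.84 (2.59 and 3.18) over all peaks. At least 3-fold enrichment was reached by 19 of 56 (33.9%) and by 36.7% of all peaks. Widths of 1 kb or more were reached by 6 of 56 (10.7%) and by 8.28% of all peaks. The 6 wide peaks were 2 each in Camk2a and Camk1d and 1 each in Camk2n1 and Nrgn. The median width was 423 bp here and 433 bp over all peaks. The background stood at its lowest value, 6.23 fragments, at 20 of the 56 (35.7%) and at 34.5% of all peaks, and at such peaks the fold rests on this shared minimum, not on a value of the locus.

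Counting error limits any order among the 56. The highest pileup, 31 fragments in Camk1d, has an exact 95% Poisson interval of 21.1 to 44.0, and the lowest, 17 fragments in Camk1d and Camk4, one of 9.90 to 27.2. No 2 of the 56 peaks had pileup intervals that did not overlap. With the background held fixed, the 4.29-fold enrichment of the strongest Camk2a peak has an interval of 2.94 to 6.06, and that of the Nrgn peak one of 2.49 to 5.41. Of the 56 fold intervals, 55 held the median fold of all peaks. The exception was the Camk2a peak, the highest of the set. The intervals cover counting error only and treat a summit chosen for its height as if it were a fixed position. Over the lowest background, no peak was listed below 16 fragments or 2.35-fold, so a stretch without a peak may hold enrichment under that limit.

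**Figure D3:**
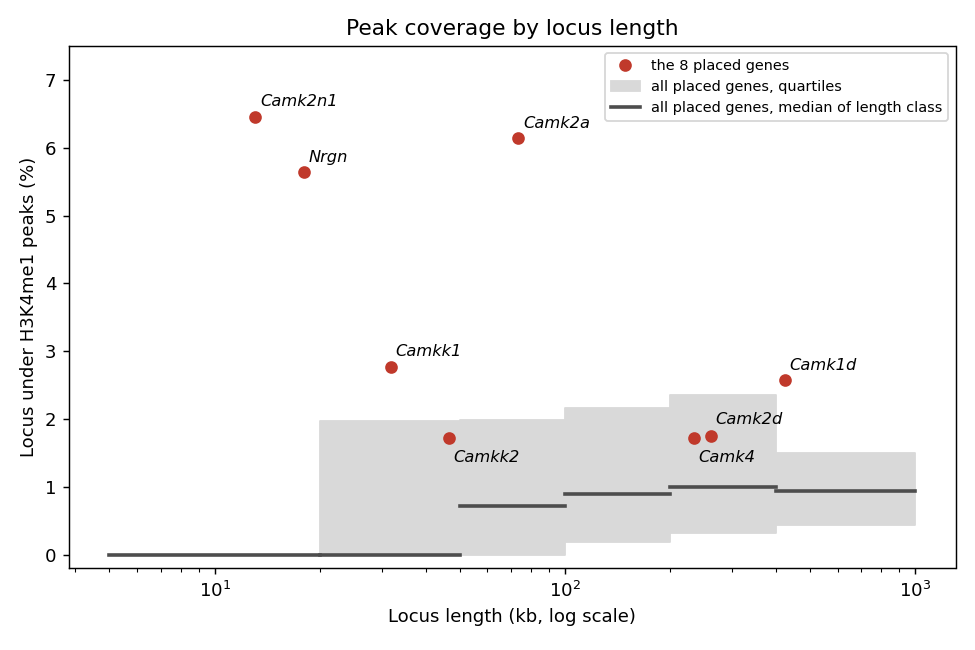
Percent of the locus under H3K4me1 peaks against locus length (log scale) for the 8 placed genes (circles). Grey bands give the quartiles and dark lines the median of all placed protein-coding genes in each length class. Camk2n1, Nrgn and Camk2a lie between 5.64 and 6.46%, while Camkk2, Camk2d and Camk4 lie within the quartiles of their classes.

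Set against genes of like length, 5 of the 8 (Camk2a, Camk2n1, Nrgn, Camkk1 and Camk1d) stood above the upper quartile of coverage of their class. For Camk2n1 and Nrgn this says only that they had a peak, as 24.3% of their class did, because the upper quartile under 20 kb is 0%. The peaks at Camk2a and Nrgn were also known when the genes were chosen. Apart from these genes, only Camkk1 and Camk1d stood above that line. Camkk1 lay above 82.2% of its class and Camkk2 above 72.0%. Camkk2, Camk2d and Camk4 lay between the median and the upper quartile. These positions are descriptions, given for 5 kb flanks. Among the 628 genes with loci within 10% of the length of Camk2a, the closest in coverage were Znf644 (6.13%, 10 peaks) and Clstn1 (6.26%, 5 peaks). For Camk2d they were Stk39 (1.75%, 9 peaks) and LOC101984034 (1.79%, 8 peaks) of 158. For Camk4 they were LOC101984034 again and Prkca (1.79%, 10 peaks) of 182, and for Camk1d Shank2 (2.42%, 18 peaks) and Foxn3 (2.88%, 23 peaks) of 77. The likeness is the difference in this single value from 1 list.

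Other genes of the pathway were read from 5 lists. Of 57 genes listed, 41 were placed and 35 of these had a peak (85.4%), beside the 46.0% of all placed genes. Many of these genes are long, with median loci of 78.0 to 336 kb per list against 28.0 kb for all placed genes. The counts are therefore not read against the 46.0%. Among all placed genes the share was 66.3% at 50 to 100 kb, where the median locus of the CREB list falls. It was 76.3% at 100 to 200 kb (calmodulin, calcineurin and cyclase lists) and 89.6% at 200 to 400 kb (synaptic list). Loci within a list span several classes, and no comparison by length was made gene by gene.

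In the list of calmodulin and other kinases and calmodulin-binding proteins, 9 of 11 placed genes had a peak and the median coverage was 1.96%. The calmodulin genes Calm2 and Calm3 had 3 peaks each, with midpoints in the gene body, over 6.48% and 5.26% of their loci. Dclk1, a kinase with a doublecortin domain and a kinase domain like that of the CaM kinases, had 33 peaks over 6.35% of its locus. Camk1g, which encodes CaMKI gamma, and Camkv, a CaM kinase-like protein without kinase activity, had none.

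Calcineurin is the phosphatase that calcium-loaded calmodulin activates, and it acts against CaMKII at synapses. Of the 9 placed genes of calcineurin, its regulators and its NFAT targets, 7 had a peak, with a median coverage of 0.798%. Ppp3ca, the alpha catalytic subunit, had 36 peaks over 8.38% of its 304 kb locus, more than any of the 8 genes described above on both counts. Cabin1, an inhibitor of calcineurin, had 12 peaks over 4.81%, and the transcription factor gene Nfatc3 had 2 over 0.833%. Nfatc1 and Rcan3 had none.

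All 9 placed genes among the synaptic targets and partners of CaMKII had a peak, with a median coverage of 2.90%. Kalrn, a signalling protein of dendritic spines, had 82 peaks over 8.32% of its 620 kb locus. Dlg4, the scaffold PSD-95, had 3 over 4.38%, and Grin2a, an NMDA receptor subunit, had 37 over 4.09%. Grin2b, the NMDA receptor subunit to which CaMKII binds, was not placed.

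Of CREB and its coactivators, 5 of 6 placed genes had a peak and the median coverage was 0.673%. The acetyltransferase gene Crebbp had 8 peaks over 2.76% of its locus, Atf1 2 over 1.77% and Crem 1 over 0.704%, while Ep300 had none. Of the calmodulin-regulated adenylyl cyclases, phosphodiesterases and nitric oxide synthase, 5 of 6 had a peak and the median was 1.14%. Pde1b, a phosphodiesterase that calmodulin activates, had 3 peaks over 6.15%, the cyclase gene Adcy8 10 over 2.04% and Pde1a 8 over 1.25%, and Pde1c had none. With 5 kb flanks the 8 genes (2.67%) and the synaptic list (2.90%) had higher medians than the calmodulin, calcineurin, CREB and cyclase lists. The median of the 8 genes was 1.81% with gene bodies alone. List medians were not recomputed, so this order is given for 5 kb flanks only, and no test between lists was made.

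**Figure D4:**
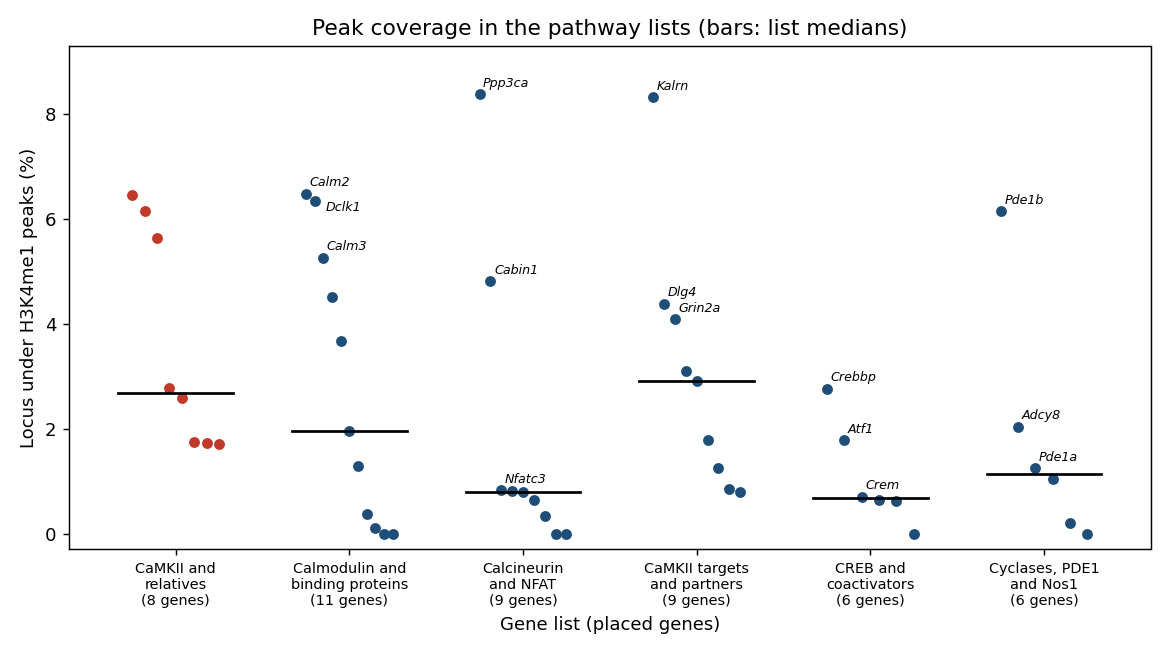
Percent of the locus under H3K4me1 peaks for each placed gene of the 8 described genes and of the 5 pathway lists. Each circle is a gene and each horizontal bar the list's median. Ppp3ca and Kalrn, at 8.38% and 8.32%, stand highest, and the list medians range from 0.673 to 2.90%.

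The label of the tissue could not be tested from this list. Among cortical neuron genes, Nell2 had 9 peaks over 1.43% of its locus, Tbr1 1 over 1.71% and Cux2 3 over 0.570%, and Neurod6 had none. Among genes of other tissues, the liver gene Alb had 1 over 1.24%, and the epithelial gene Cdh1 and the liver and choroid plexus gene Ttr had none. The choice of these genes came after the values had been seen, and a peak list does not measure expression.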

How the data were processed

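The peak list of 1 H3K4me1 ChIP library against 1 input library was made by the authors with MACS (version 2.0.10.20131216, paired-end fragments), per the file headers (q limit 0.05, effective genome size 1.89e+09, 1 duplicate fragment kept per position, larger library scaled to the smaller). The submitters' processing notes name SAMtools 0.1.19, MACS2 2.0.10 and BWA 0.7.12, but header paths name Stampy, and which aligner was used was not settled. The deposited signal is the pileup, the ChIP coverage at the summit. The deposited fold is its ratio to the local background, with a pseudocount of 1 on both. The deposited −log10 p-values and −log10 q-values are those of a Poisson test in MACS. All are the authors' values per peak.

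The local background was computed from pileup and fold, and at 100% of peaks it gave a Poisson −log10 p within 0.05 of the deposited one. Backgrounds within 0.001 of the minimum were called lowest. Gene positions came from a RefSeq table of MicOch1.0. The sources used here do not state the build of the peaks. On the 7 sequences with placed members, the band 1 to 2.5 kb from gene ends held 965 peaks as deposited and 474 to 565 when peaks were shifted by 20 to 200 kb either way. Genes on unplaced sequences, on chromosome 14 and on the first 20 Mb of chromosome 6 were not used, and no coordinate of the table is given. No sequence was used here, so the planned motif search was not made.

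Members and lists were chosen with earlier results of these data known. All 10 members are named, and for each list the 3 genes of highest coverage and the first 2 by alphabet without a peak, plus Grin2b. A gene of the calmodulin list is not reported here and was left out of its counts. The design allows no test across samples, so groups are described by counts and medians. The coverage computation was tested on simulated loci. Alternatives changed the flank, the overlap and the peak threshold. Python 3.11.15, pandas 2.3.3, NumPy 2.4.6, SciPy 1.17.1 and matplotlib 3.10.9 were used.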

Additional observations from a re-analysis of the deposited data

How the results depend on the processing

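The count of genes with a peak, the number of peaks, the median coverage, the coverage of each of the 8 genes and the counts of the 5 lists were recomputed under 7 alternatives, 112 values in all, of which 65 stayed within the limits set and 47 moved. Of the moved values 38 were coverages of single genes, judged against a binomial interval over bases that is very narrow. For counts the limits were wide. A fall from 8 to 6 genes with gene bodies alone stayed within them. So did a fall from 9 to 6 genes in the calmodulin list with peaks of at least 3-fold enrichment. The median coverage of 2.67% was 1.81% with gene bodies alone, 2.31% with 10 kb and 1.59% with 50 kb on each side, 1.32% with the 50% of peaks of higher q rank and 1.17% with peaks of at least 3-fold enrichment. The last 2 settings kept 27 and 19 of the 56 peaks, by construction. They also left a peak at 2 placed CREB genes each. With gene bodies alone 6 of the 8 genes had a peak (38.1% of all placed genes), since Camk2n1 and Nrgn had none. With 3-fold peaks 7 did (27.6%), Camkk2 being the exception. In the other 5 alternatives all 8 had one, beside 10475 of the 13975 placed genes with 50 kb on each side, where the count says little, and beside 50.8% with 10 kb, 45.7% by midpoints, 32.9% with higher-q peaks and 45.9% without high-background peaks. Ranks, list medians, runs of peaks and comparisons of fold and width were not recomputed. Leaving out peaks over a high background changed no value of the 8 genes, because it removed none of their 56 peaks. The highest background among these was 11.4 fragments. This setting could therefore not move those values, and they count among the 65. No paired analysis was possible because each group has 1 library. Depth limits every order among single peaks, as their counting intervals overlap.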
